A study of Homo sapiens with 12 samples.

Results

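The genes described here carry glucose into the cell, break it down to lactate or store it as glycogen. They are 32 genes chosen by symbol, with earlier results of these data known. They were found by Ensembl gene ID among the 60649 rows that both deposited count tables list. RNA was measured by sequencing poly-T selected messenger RNA from tumours grown in host animals from Cal33 cells, an established line of human squamous carcinoma of the head and neck. In the first experiment, 3 samples from tumours given SW-682, a small molecule TEAD inhibitor (labelled smTEADi), stand against 3 from Vehicle tumours. In the second, 3 samples from tumours labelled pTEADi (DOX+) stand against 3 from Control (DOX-) tumours. DOX, the marker of an inducible inhibitor, is listed for the pTEADi tumours and not for Control, so that its own effect and that of the inhibitor cannot be told apart. The labels used here give no dose, duration, animal strain, age or number of animals, and the p-values therefore reflect only how these samples vary, which may be technical. TEAD proteins are the DNA-binding partners of the co-activators YAP and TAZ.

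Glycolysis splits glucose into pyruvate in the cytosol and yields ATP without oxygen. Squamous carcinomas are known for high glucose uptake and for turning much of the pyruvate into lactate, which leaves the cell through monocarboxylate transporters. Many of these genes are textbook targets of the hypoxia-inducible factors, and several of MYC, and the kinases encoded by PDK1, PDK2 and PDK3 keep pyruvate out of mitochondrial oxidation by switching off pyruvate dehydrogenase.

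Library totals were 13576494 to 15433679 expected counts, with 14536 to 14873 genes at 10 counts or above. Within each group, a chi-square of the counts between 2 libraries was 6.97 to 31.2 per degree of freedom, above the value of 1 for pure sampling, so none was counted as the same library deposited again. Separate preparations of 1 tumour would also differ, so this does not show separate tumours. Of the 32 members, 31 passed the low-count filter in every comparison. SLC2A3, the gene of the transporter GLUT3, had 0 to 11 counts per library and was not tested. The 8 epithelial markers (EPCAM, CDH1, KRT5, KRT14, KRT17, KRT6A, TP63 and DSP) all passed the filter. They summed to 46949 to 80098 CPM after TMM scaling, and the sums overlapped between the groups of both experiments. Of the 8, 1 fell with SW-682 and 2 with pTEADi, beside 3.48% and 13.6% of all genes. In bulk tumours, fewer cells of a type and less RNA per cell cannot be told apart.

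With pTEADi the glycolytic route was lower at most of its steps. Of 31 members tested, 17 fell and 1 rose, where 13.6% of 14705 genes tested fell and 12.7% rose. Because the members were chosen with earlier results of these data known, these counts are not an independent test. The falls ran from the glucose transporter SLC2A1 through hexokinase HK2, the regulatory enzyme PFKFB3 and enolase ENO2 to lactate dehydrogenase and the lactate transporter SLC16A1. The median log2 fold change of the 31 members was -0.42, against -0.00067 over all genes tested. All 3 pTEADi libraries lay below all 3 Control libraries for 21 members and above them for 2, as for 21.7% and 20.3% of all genes, or 42% in either direction. In either direction 18 members were called, beside 26.3% of all genes, and 24 had an unadjusted p under 0.05, beside 38.2%. The log2 fold change was below 0 for 23 members, beside 50.1% of all genes.

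With SW-682, 2 of 31 members fell (LDHB and SLC16A1) and 0 rose, where 3.48% of 14829 genes fell and 2.02% rose. The median log2 fold change was -0.074, against 0.011 over all genes tested. The smTEADi libraries lay below all Vehicle libraries for 8 members and above them for 3, as for 17.3% and 15.7% of all genes, or 33% in either direction. Calls in either direction made up 5.5% of all genes. An unadjusted p under 0.05 was reached by 10 members, beside 27.8% of all genes, and 18 had a log2 fold change below 0, beside 48.9%. A gene is called when edgeR's quasi-likelihood test gave a Benjamini-Hochberg adjusted p under 0.05 over all genes, and each log2 fold change is given with its SE after ±.

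**Figure D1:**
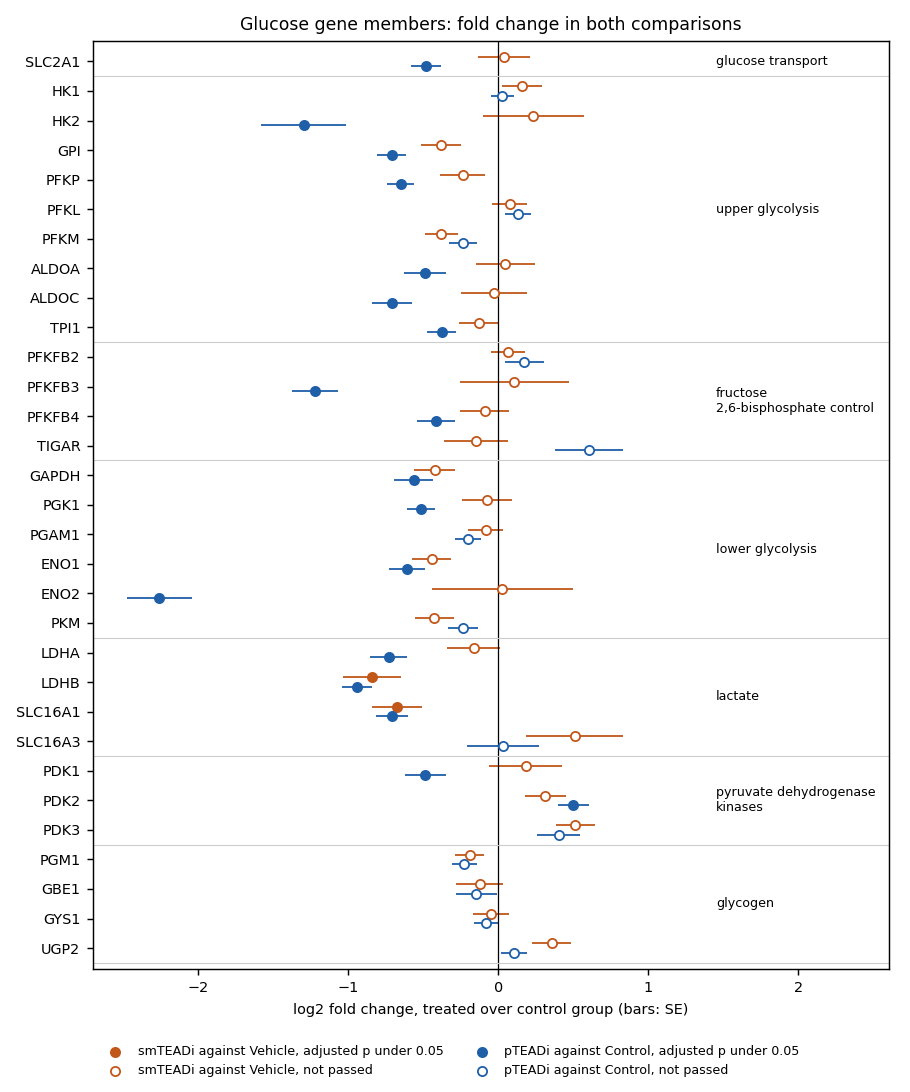
Log2 fold change (x axis, treated over control group) of the 31 tested members, 1 gene per row and ordered by role, with bars for the SE. Filled points passed an adjusted p of 0.05: 18 with pTEADi and 2 with SW-682, and ENO2 with pTEADi lies farthest from 0 at -2.26.

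Promoter sequence is shown for 5 members that fell with pTEADi: LDHB, which also fell with SW-682, and PFKFB3, ENO2, LDHA and PGK1, which did not pass there. The sequences are the 250 bases before a RefSeq start site in GRCh38.p14, read 5′ to 3′ on the gene's strand. Capitals mark ACGTG, the core of the hypoxia response element, and GGAATG, the core to which TEAD proteins bind. Both were searched on both strands, as CACGT and CATTCC on the other strand. ACGTG also lies inside CACGTG, the E-box that MYC can bind, and there the matches on the 2 strands overlap. The windows are PFKFB3 (chr10:6202682-6202931, plus strand), ENO2 (chr12:6914330-6914579, plus strand), LDHA (chr11:18394313-18394562, plus strand), PGK1 (chrX:78103998-78104247, plus strand) and LDHB (chr12:21657843-21658092, minus strand). Where a gene had 2 windows, the one with a motif is shown.
PFKFB3: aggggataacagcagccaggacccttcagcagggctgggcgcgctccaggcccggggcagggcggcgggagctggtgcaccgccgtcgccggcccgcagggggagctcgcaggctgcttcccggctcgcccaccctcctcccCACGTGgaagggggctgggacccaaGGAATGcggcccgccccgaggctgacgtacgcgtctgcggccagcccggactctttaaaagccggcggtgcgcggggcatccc
ENO2: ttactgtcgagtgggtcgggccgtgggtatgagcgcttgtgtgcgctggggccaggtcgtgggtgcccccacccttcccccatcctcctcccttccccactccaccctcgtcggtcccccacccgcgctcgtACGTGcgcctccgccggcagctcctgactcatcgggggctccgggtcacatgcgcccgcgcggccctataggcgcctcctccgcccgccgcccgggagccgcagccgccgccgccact
LDHA: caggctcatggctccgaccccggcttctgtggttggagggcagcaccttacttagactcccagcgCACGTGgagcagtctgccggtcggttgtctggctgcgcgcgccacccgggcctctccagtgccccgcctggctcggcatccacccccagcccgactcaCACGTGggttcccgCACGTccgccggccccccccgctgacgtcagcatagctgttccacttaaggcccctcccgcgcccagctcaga
PGK1: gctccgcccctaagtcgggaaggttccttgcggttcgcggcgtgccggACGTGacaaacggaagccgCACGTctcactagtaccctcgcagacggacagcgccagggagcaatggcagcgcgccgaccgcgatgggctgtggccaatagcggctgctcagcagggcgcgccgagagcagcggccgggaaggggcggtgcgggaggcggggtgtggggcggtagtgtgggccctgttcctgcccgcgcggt
LDHB: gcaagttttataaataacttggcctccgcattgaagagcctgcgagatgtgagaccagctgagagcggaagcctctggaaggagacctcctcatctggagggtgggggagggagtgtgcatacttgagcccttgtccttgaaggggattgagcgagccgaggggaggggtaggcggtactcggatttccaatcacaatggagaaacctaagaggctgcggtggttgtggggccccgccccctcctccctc

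ACGTG occurred in the windows shown of PFKFB3, ENO2, LDHA and PGK1, GGAATG in that of PFKFB3, and neither in that of LDHB. The other windows of PFKFB3 and LDHA held neither motif. Of the 32 members, 29 had an entry in the promoter table, with 60 windows in all, and SLC2A3, PFKFB2 and SLC16A1 had none. ACGTG was found in 57.7% of the 26 windows of members that fell with pTEADi and in 23.5% of the 34 windows of the other members, beside 20.2% of 22199 windows of all protein-coding genes. Counted by gene, 12 of 16 members that fell and 8 of 13 that did not had it in at least 1 window, or 75.0% and 61.5%, beside 25.3% of 15843 protein-coding genes. GGAATG was in 11.5% and 5.88% of these windows, beside 10.5% of all. Counted by gene, the E-box CACGTG was in 37.5% of members that fell and 7.69% of those that did not, beside 9.73% of all protein-coding genes. The ACGTG matches therefore include E-boxes. A match describes letters in a window and shows no binding. Genes also differ in their number of windows: HK1 and PFKM, which did not pass, had 7 each.

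Per length, the abundant enzymes of the main route led in every group. Levels between genes were compared as CPM per kb of merged Gencode 44 exons, given as the mean ± SD of 3 libraries. GAPDH, which oxidises the triose phosphate, had 1367 ± 76.99 CPM per kb in pTEADi tumours and 2021 ± 337 in Control tumours, and 1046 ± 133 in smTEADi tumours and 1403 ± 77.01 in Vehicle tumours. ALDOA, the common aldolase, followed with 521 ± 15.01 CPM per kb in pTEADi tumours and 729.6 ± 159 in Control tumours. ENO2 was far below its partner ENO1: it had 2.15 ± 0.361 CPM per kb in pTEADi tumours and 10.3 ± 3.11 in Control tumours, where ENO1 had 368 ± 20.8 and 561 ± 86.4. PDK3 and TIGAR were the lowest of the tested members, at a mean of 1.62 and 1.06 CPM per kb over the 12 libraries. Merged exons count every annotated exon, so a gene with long rare exons is placed low on this scale.

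**Figure D2:**
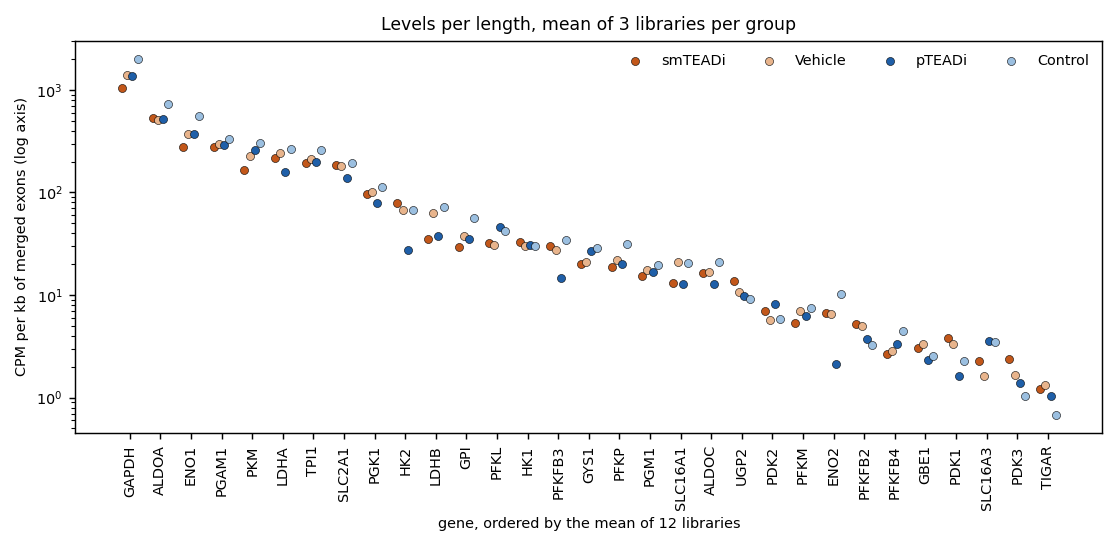
Group means in CPM per kb of merged exons (y axis, log scale) for the tested members, ordered by the mean of the 12 libraries (n = 3 libraries per point). GAPDH stands first, between 1046 and 2021 CPM per kb, and TIGAR last.

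SLC2A1, which encodes the glucose transporter GLUT1 (ENSG00000117394.24, GRCh38 chromosome 1, 42925353 to 42958893, minus strand), was the 1 tested member of the transport step, and uptake itself was not measured. It had 935, 931 and 899 CPM in pTEADi tumours, against 1348, 1368 and 1136 CPM in Control tumours. All pTEADi libraries lay below Control, and the gene fell by 0.48 ± 0.099 (adjusted p = 0.00433). In the other experiment SLC2A1 had 1467, 1252 and 935 CPM in smTEADi tumours, against 1133, 1336 and 1093 CPM in Vehicle tumours. The highest and the lowest of these 6 libraries were both smTEADi, and the log2 fold change did not pass (0.037 ± 0.17, adjusted p = 0.908).

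Hexokinases trap glucose in the cell as glucose phosphate. HK1, the form that most tissues express steadily, did not pass with pTEADi (0.027 ± 0.079, adjusted p = 0.837) or with SW-682 (0.16 ± 0.13, adjusted p = 0.473). HK2, the inducible form (ENSG00000159399.10, GRCh38 chromosome 2, 74834127 to 74893359, plus strand), had 150.2, 169 and 166 CPM in pTEADi tumours, against 414, 586 and 193 CPM in Control tumours. The groups did not overlap, with Control 3 the nearest, and HK2 fell by 1.297 ± 0.28 (adjusted p = 0.00558). Under SW-682, HK2 had 712, 472 and 218 CPM in smTEADi tumours, against 326, 445 and 421 CPM in Vehicle tumours. Again the highest and the lowest library were smTEADi, and the change did not pass (0.23 ± 0.34, adjusted p = 0.689).

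Further along the upper stretch, GPI, PFKP, ALDOA, ALDOC and TPI1 also fell with pTEADi, which with HK2 makes 6 of 9 members there. GPI, the isomerase after hexokinase, had 379, 366 and 369 CPM in pTEADi tumours, against 634, 652 and 536 CPM in Control tumours (-0.71 ± 0.095, adjusted p = 0.000335). PFKP, the platelet-type phosphofructokinase subunit, had 165, 157 and 148 CPM in pTEADi tumours, against 242, 266 and 229 CPM in Control tumours (-0.65 ± 0.088, adjusted p = 0.00036). Neither gene's groups overlapped. Of its 2 partner subunits, the liver-type PFKL did not pass (0.13 ± 0.085, adjusted p = 0.285). The muscle-type PFKM had 47.3, 42.4 and 47.6 CPM in pTEADi tumours, against 52.7, 52.2 and 56.5 CPM in Control tumours, lower without overlap but not passing (-0.24 ± 0.091, adjusted p = 0.0775).

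The aldolases split fructose bisphosphate, and TPI1 interconverts the resulting trioses. ALDOA had 2023, 2032 and 1928 CPM in pTEADi tumours, against 2814, 3391 and 2176 CPM in Control tumours, and fell by 0.49 ± 0.14 (adjusted p = 0.0244). ALDOC had 32.4, 37.3 and 31.3 CPM in pTEADi tumours, against 56.2, 64.6 and 44.02 CPM in Control tumours, and fell by 0.71 ± 0.13 (adjusted p = 0.00249). TPI1 had 559.8, 539 and 512 CPM in pTEADi tumours, against 725, 747 and 616 CPM in Control tumours, and fell by 0.38 ± 0.098 (adjusted p = 0.0142). All 3 genes separated the groups. With SW-682 none of the 9 members of this stretch passed, with log2 fold changes from -0.38 to 0.23. GPI had 343, 339.9 and 250.5 CPM in smTEADi tumours, against 384, 409.6 and 422 CPM in Vehicle tumours (-0.38 ± 0.13, adjusted p = 0.109), and PFKM had 36.4, 38.4 and 42.5 CPM in smTEADi tumours, against 48.8, 47.4 and 56.6 CPM in Vehicle tumours (-0.38 ± 0.11, adjusted p = 0.067). Those were the members of the stretch whose smTEADi libraries all lay below Vehicle.

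A side branch sets the pace of phosphofructokinase: the PFKFB enzymes make and remove its activator, and TIGAR removes it. PFKFB3, whose enzyme strongly favours making the activator (ENSG00000170525.21, GRCh38 chromosome 10, 6144934 to 6254644, plus strand), had 90.8, 91.3 and 88.4 CPM in pTEADi tumours, against 213, 264 and 153 CPM in Control tumours. The pTEADi libraries were close to each other and below Control, and PFKFB3 fell by 1.22 ± 0.15 (adjusted p = 0.000241). In the other experiment it had 283, 189 and 75.4 CPM in smTEADi tumours, against 148, 192 and 168 CPM in Vehicle tumours. The smTEADi libraries reached beyond the Vehicle range on both sides, and the change did not pass (0.11 ± 0.36, adjusted p = 0.875). PFKFB4, a related enzyme, had 22.01, 21.3 and 17.8 CPM in pTEADi tumours, against 29.8, 28.1 and 23.6 CPM in Control tumours, and fell by 0.42 ± 0.13 (adjusted p = 0.0293). PFKFB2 did not pass with pTEADi (0.17 ± 0.13, adjusted p = 0.356). TIGAR had 8.41, 9.93 and 11.03 CPM in pTEADi tumours, against 6.84, 4.22 and 8.24 CPM in Control tumours, higher without overlap but not passing (0.60 ± 0.23, adjusted p = 0.0716). With SW-682, PFKFB2, PFKFB4 and TIGAR did not pass either.

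In the lower stretch, where ATP is made, GAPDH, PGK1, ENO1 and ENO2 fell with pTEADi and PGAM1 and PKM did not pass. ENO2, the gamma enolase best known from neurons (ENSG00000111674.9, GRCh38 chromosome 12, 6913745 to 6923698, plus strand), had the lowest log2 fold change of the members. It had 9.87, 10.3 and 7.42 CPM in pTEADi tumours, against 49.8, 53.3 and 28.7 CPM in Control tumours. No pTEADi library reached the Control range, and the fitted level was 0.209 times that of Control (-2.26 ± 0.22, adjusted p = 4.55e-05). Among SW-682 and Vehicle tumours, ENO2 had 47.5, 31.3 and 7.601 CPM in smTEADi tumours, against 26.98, 31.4 and 26.4 CPM in Vehicle tumours. The smTEADi libraries spread 6.24-fold, against 1.19-fold within Vehicle, and the change did not pass (0.026 ± 0.47, adjusted p = 0.975).

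The abundant genes of this stretch fell less. GAPDH had 3486, 3146 and 3192 CPM in pTEADi tumours, against 5211, 5398 and 3914 CPM in Control tumours (-0.57 ± 0.13, adjusted p = 0.00776). PGK1, the first ATP-yielding kinase, had 433, 418 and 430.4 CPM in pTEADi tumours, against 632, 645 and 549 CPM in Control tumours (-0.51 ± 0.091, adjusted p = 0.00173). ENO1, the common enolase, had 2039, 1826 and 1896 CPM in pTEADi tumours, against 3045, 3305 and 2427 CPM in Control tumours (-0.61 ± 0.12, adjusted p = 0.00371). In these 3 genes every pTEADi library was below every Control library. The same held, without passing, for PGAM1, the phosphoglycerate mutase, with 729.9, 735 and 739 CPM in pTEADi tumours, against 868, 867 and 793 CPM in Control tumours (-0.20 ± 0.087, adjusted p = 0.113). It held as well for PKM, the pyruvate kinase gene, with 2329, 2117 and 2168 CPM in pTEADi tumours, against 2667, 2729 and 2394 CPM in Control tumours (-0.24 ± 0.10, adjusted p = 0.105). Pseudogene rows took few of these reads: the 65 rows of GAPDH copies summed to at most 0.0771% of its counts in any library, and the 13 of PGAM1 to at most 0.475%.

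With SW-682 the 6 genes of the lower stretch did not pass, and 3 of them separated the groups. GAPDH had 2461, 2845 and 2213 CPM in smTEADi tumours, against 3158, 3412 and 3517 CPM in Vehicle tumours (-0.42 ± 0.14, adjusted p = 0.0878). ENO1 had 1314, 1626 and 1372 CPM in smTEADi tumours, against 1790.5, 1974 and 2109 CPM in Vehicle tumours (-0.45 ± 0.13, adjusted p = 0.0707). PKM had 1251, 1626 and 1408 CPM in smTEADi tumours, against 1836, 1946 and 1982 CPM in Vehicle tumours (-0.43 ± 0.13, adjusted p = 0.0767). All 3 were lower in every smTEADi library. RLE and upper-quartile scaling and limma-voom also called none of the 3. Library totals in place of TMM called ENO1 alone of them (-0.52, adjusted p = 0.0491). DESeq2, a fit of all 12 libraries and a fit with no low-count filter called all 3, and with DESeq2 1868 genes were called in all, against 816.

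**Figure D3:**
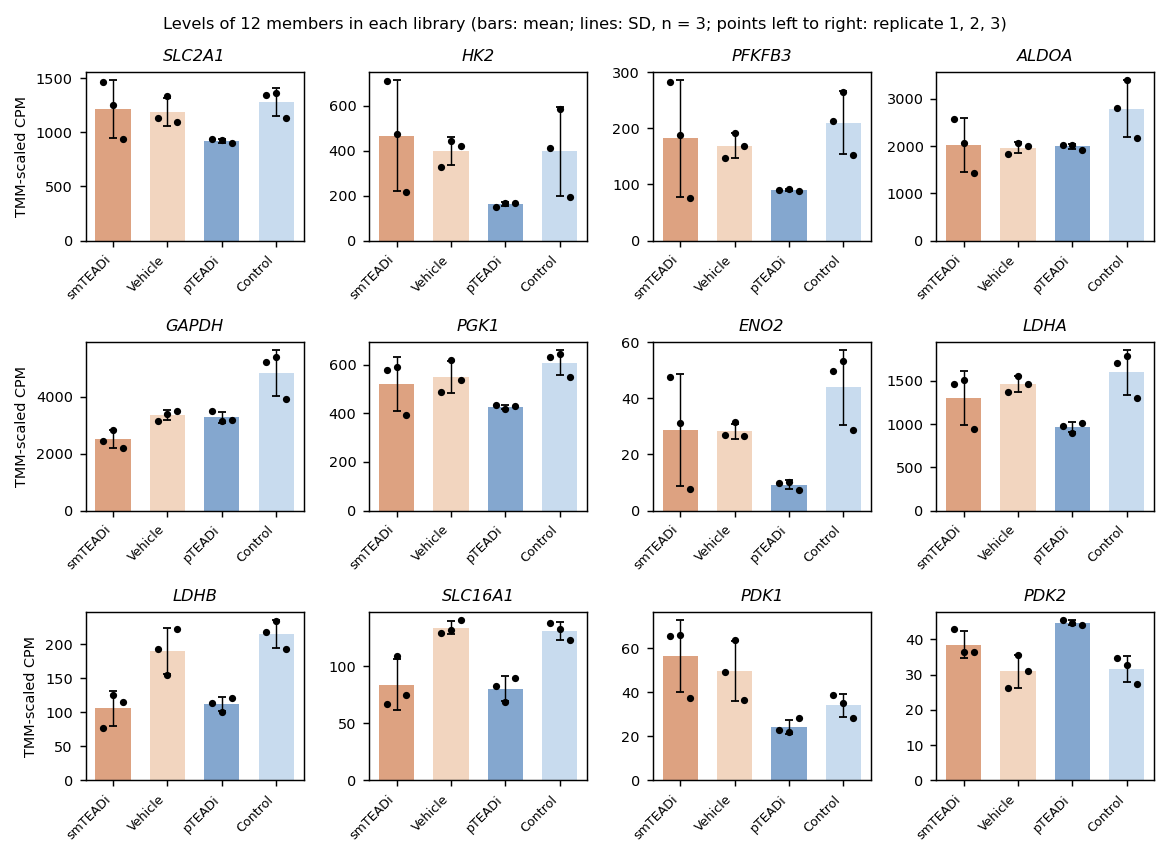
TMM-scaled CPM (y axis, linear from 0) of 12 members in the 4 groups, with points for single libraries and the mean and SD of each group (n = 3 libraries). LDHB and SLC16A1 are lower in both treated groups, whereas HK2, PFKFB3 and ENO2 are low and even in pTEADi tumours and spread widely in smTEADi tumours.

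The 2 members called in both experiments, LDHB and SLC16A1, belong to lactate handling. The share of all genes called in both was not counted, and with SW-682 alone 5.5% of all genes were called. LDHB encodes the dehydrogenase subunit that favours turning lactate into pyruvate (ENSG00000111716.14, GRCh38 chromosome 12, 21635342 to 21757857, minus strand). It had 114, 100.7 and 121 CPM in pTEADi tumours, against 218, 234 and 193 CPM in Control tumours. In the other experiment it had 76.5, 125 and 116 CPM in smTEADi tumours, against 193, 155 and 221 CPM in Vehicle tumours. Neither pair of groups overlapped. LDHB fell by 0.94 ± 0.10 (adjusted p = 8.91e-05) with pTEADi and fell by 0.84 ± 0.19 (adjusted p = 0.0426) with SW-682. SLC16A1 encodes the monocarboxylate transporter MCT1 (ENSG00000155380.13, GRCh38 chromosome 1, 112911847 to 112957593, minus strand). It had 82.6, 68.7 and 90.03 CPM in pTEADi tumours, against 138, 133 and 123 CPM in Control tumours. Under SW-682, it had 67.1, 109 and 75.2 CPM in smTEADi tumours, against 129.7, 132 and 141 CPM in Vehicle tumours. It too separated both pairs of groups, and fell by 0.71 ± 0.10 (adjusted p = 0.000582) with pTEADi and fell by 0.68 ± 0.17 (adjusted p = 0.0483) with SW-682. Both SW-682 calls were lost without smTEADi 1, smTEADi 3, Vehicle 1 or Vehicle 3.

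LDHA, the subunit that favours making lactate, had 977, 899 and 1015 CPM in pTEADi tumours, against 1706, 1786 and 1304 CPM in Control tumours. The groups did not overlap and LDHA fell by 0.73 ± 0.12 (adjusted p = 0.00124). In the other experiment LDHA had 1460.04, 1510.5 and 946 CPM in smTEADi tumours, against 1371, 1558 and 1459.9 CPM in Vehicle tumours. There smTEADi 3 stood below the other 5 libraries and the change did not pass (-0.16 ± 0.18, adjusted p = 0.577). SLC16A3, the gene of the lactate exporter MCT4, did not pass with pTEADi (0.030 ± 0.24, adjusted p = 0.943) or with SW-682 (0.51 ± 0.32, adjusted p = 0.332).

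Of the kinases that switch off pyruvate dehydrogenase, 1 rose and 1 fell with pTEADi. PDK2 had 45.5, 44.7 and 44.1 CPM in pTEADi tumours, against 34.6, 32.9 and 27.5 CPM in Control tumours, and rose by 0.50 ± 0.10 (adjusted p = 0.00437). PDK1, a standard hypoxia target, had 22.97, 21.9 and 28.2 CPM in pTEADi tumours, against 38.9, 35.3 and 28.3 CPM in Control tumours, and fell by 0.49 ± 0.14 (adjusted p = 0.0213). The PDK2 groups were well apart, while the PDK1 groups nearly touched at pTEADi 3 and Control 3. PDK3 did not pass with pTEADi (0.40 ± 0.14, adjusted p = 0.0558). With SW-682 PDK3 had 47.4, 38.7 and 38.4 CPM in smTEADi tumours, against 27.9, 33.02 and 26.4 CPM in Vehicle tumours (0.51 ± 0.13, adjusted p = 0.0518), and PDK2 had 42.8, 36.3 and 36.3 CPM in smTEADi tumours, against 26.3, 35.6 and 31.001 CPM in Vehicle tumours (0.31 ± 0.13, adjusted p = 0.164). Both were higher without overlap and did not pass.

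None of the 4 glycogen genes passed in either experiment. PGM1 and UGP2 turn glucose phosphate into the activated donor, GYS1 is the synthase and GBE1 the branching enzyme. Their log2 fold changes ran from -0.23 to 0.10 with pTEADi and from -0.19 to 0.36 with SW-682. PGM1 had 71.1, 62.8 and 70.1 CPM in pTEADi tumours, against 78.99, 81.6 and 77.97 CPM in Control tumours (-0.23 ± 0.085, adjusted p = 0.0692). Among SW-682 and Vehicle tumours, it had 57.04, 64.8 and 66.6 CPM in smTEADi tumours, against 69.9, 72.9 and 72.5 CPM in Vehicle tumours (-0.19 ± 0.096, adjusted p = 0.228). UGP2 had 109, 95.7 and 76.3 CPM in smTEADi tumours, against 71.05, 75.5 and 73.5 CPM in Vehicle tumours (0.36 ± 0.13, adjusted p = 0.12). PGM1 was thus lower without overlap in both treated groups, and UGP2 higher in smTEADi tumours by a narrow gap, without passing.

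Ratios of related genes within a library do not depend on how libraries are scaled, and are given as values with no test. HK2 over HK1 was 0.708, 0.808 and 0.7703 in pTEADi tumours, against 2.02, 2.69 and 0.958 in Control tumours. PFKP over PFKL was 0.399, 0.363 and 0.383 in pTEADi tumours, against 0.648, 0.685 and 0.634 in Control tumours. In the other experiment it was 0.542, 0.543 and 0.436 in smTEADi tumours, against 0.613, 0.619 and 0.673 in Vehicle tumours. This ratio was lower without overlap in both treated groups. ENO2 over ENO1 was 0.00484, 0.00563 and 0.00391 in pTEADi tumours, against 0.0164, 0.0161 and 0.0118 in Control tumours. PDK1 over PDK2 was 0.505, 0.491 and 0.638 in pTEADi tumours, against 1.12, 1.07 and 1.03 in Control tumours. Both ratios were lower without overlap. LDHA over LDHB was 8.58, 8.92 and 8.37 in pTEADi tumours, against 7.83, 7.64 and 6.77 in Control tumours. It was higher without overlap with pTEADi and overlapped with SW-682. SLC16A3 over SLC16A1 was 0.505, 0.152 and 0.173 in smTEADi tumours, against 0.133, 0.0876 and 0.112 in Vehicle tumours, higher without overlap, and overlapped with pTEADi. The remaining pairs, PFKFB3 over PFKFB2 and ALDOC over ALDOA, were lower without overlap with pTEADi. With SW-682 these, HK2 over HK1, ENO2 over ENO1 and PDK1 over PDK2 overlapped.

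**Figure D4:**
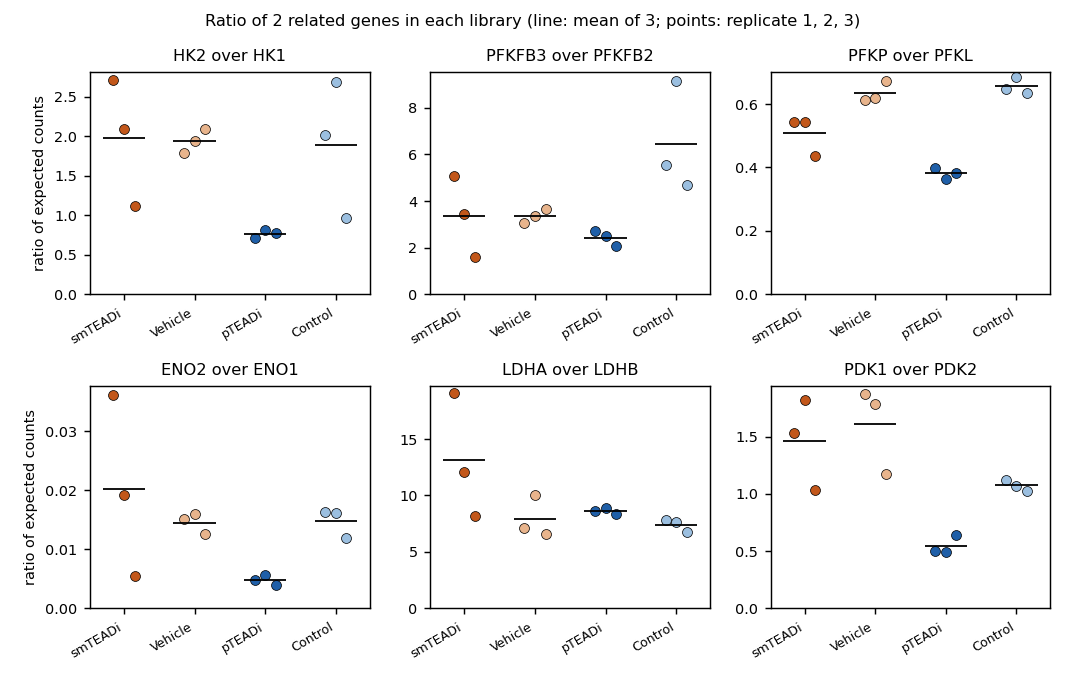
Ratio of expected counts (y axis) of pairs of related genes in each of the 12 libraries, 1 panel per pair. PFKP over PFKL lies between 0.363 and 0.543 in treated tumours and between 0.613 and 0.685 in the 2 control groups.

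The smTEADi libraries differed widely from each other in several members. A list of 20 hypoxia genes outside glycolysis summed to 10629, 8235 and 4299 CPM in smTEADi 1, 2 and 3, against 6476, 8200.3 and 6241 CPM in Vehicle 1, 2 and 3. NDRG1, a stress-responsive gene and the most abundant of the list, made up 62.6% to 71.9% of the sum over the 12 libraries, and had 7028, 5504 and 2888 CPM in smTEADi tumours, against 4403, 5576 and 4197 CPM in Vehicle tumours. Without it the list summed to 3601, 2732 and 1411 CPM in smTEADi 1, 2 and 3. The order with smTEADi 1 highest and smTEADi 3 lowest held for 15 of the 20 genes, but not for CA9, a standard hypoxia marker, which had 32.9, 41.9 and 10.8 CPM in smTEADi tumours, against 35.3, 51.3 and 41.4 CPM in Vehicle tumours. HK2, PFKFB3 and ENO2, chosen after their values were seen, were among 14 of the 31 members with that order. The share of all genes with that order was not counted, while 39.6% of all genes were highest in smTEADi 1. Another 7 members were lowest in smTEADi 1, beside 38.4% of all genes: PFKM, ENO1, PKM, PGM1, GYS1 and both called members, LDHB and SLC16A1. Of these, ENO1, PKM, LDHB and SLC16A1 were highest in smTEADi 2. In all, 23 were lowest in smTEADi 3 within that group, as were 31.3% of all genes. Set against the Vehicle mean of log2 CPM with 0.1 added, the median of the members was 0.044 in smTEADi 1, 0.076 in smTEADi 2 and -0.37 in smTEADi 3. Without smTEADi 1, the log2 fold change with SW-682 was -0.20 for HK2, -0.36 for PFKFB3 and -0.53 for ENO2. Without smTEADi 3 it was 0.57 for HK2, 0.47 for PFKFB3 and 0.47 for ENO2, and none of these 6 values passed. Endothelial markers summed to 40.4 to 68.1 CPM in smTEADi tumours and 19.9 to 37.7 CPM in Vehicle tumours. Of the 7, 6 had counts in at least 1 of the 12 libraries, KDR had 0, and only 2 passed the low-count filter. Adipocyte markers summed to 37.3 to 67.7 CPM in smTEADi tumours and 24.2 to 32.5 CPM in Vehicle tumours. Of the 8, 5 had counts in at least 1 library, ADIPOQ, LEP and CIDEC had 0, and only 3 passed the filter. Reads were aligned to the human genome and the treatment of mouse reads is not given, so these sums cannot be assigned to host cells. The part of hypoxia and of these markers in the members' levels was not tested.

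The pTEADi libraries were alike, and among Control libraries the third stood lower. The hypoxia list summed to 5173, 5120.4 and 4781 CPM in pTEADi 1, 2 and 3, against 9371, 10157 and 7115 CPM in Control 1, 2 and 3. Of its 20 genes, 12 fell and 0 rose, beside 13.6% and 12.7% of all genes, but the list too was chosen with earlier results known. NDRG1 alone had 3719.8, 3675 and 3359.9 CPM in pTEADi tumours, against 6283, 6359 and 4861 CPM in Control tumours. Control 3, lowest of its group on that sum, was also lowest for 26 of 31 members, as for 36.8% of all genes. Against the Control mean, the median of the members was -0.31, -0.37 and -0.44 in pTEADi 1, 2 and 3, and -0.15 in Control 3. HK2 had a log2 fold change of -1.63 without Control 3 and of -0.91 without Control 2, and passed both times. Leukocyte and macrophage markers summed to 35.95 to 42.2 CPM in pTEADi tumours and 47.5 to 72.8 CPM in Control tumours. Of the 11, 7 had counts in at least 1 library, C1QA, C1QB, C1QC and TYROBP had 0, and only 5 passed the low-count filter. Endothelial markers, of which 2 passed the filter, summed to 33.01 to 44.8 CPM in pTEADi tumours and 15.4 to 24.7 CPM in Control tumours. These sums cannot be assigned to host cells either, and the part of hypoxia and of these markers was not tested. Skeletal muscle, fibroblast and red cell marker sums overlapped between the groups of both experiments.

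**Figure D5:**
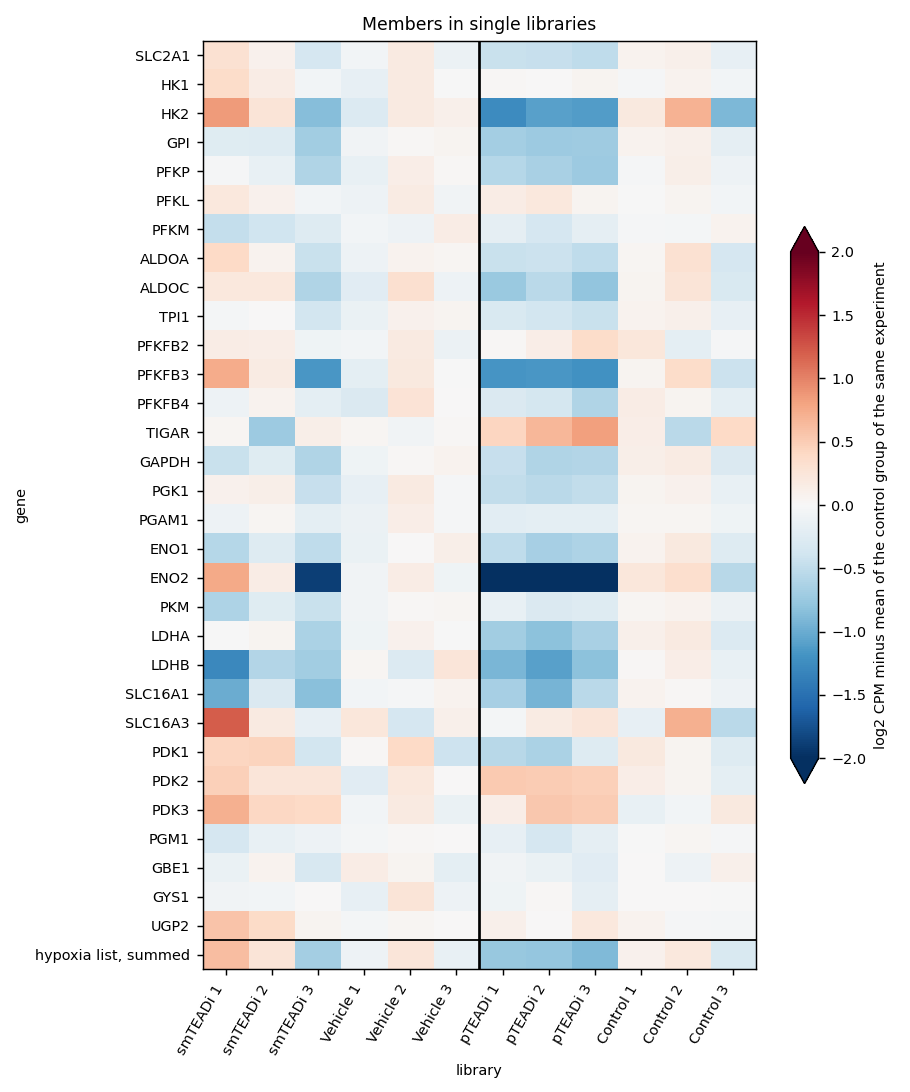
Log2 CPM of each tested member (rows) in each library (columns) minus the mean of the control group of the same experiment, shown in colour, with the hypoxia list for comparison. The 3 pTEADi columns resemble each other, while HK2, PFKFB3 and ENO2 are high in smTEADi 1 and low in smTEADi 3.

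The effects of the 2 inhibitors, each against its own control group, were compared in 1 fit of the 12 libraries. They come from separate experiments, and DOX is listed for pTEADi and not for Control. Inhibitor, experiment and DOX therefore cannot be told apart in this difference. Of the 31 members, 25 had a lower log2 fold change with pTEADi than with SW-682, a share not counted over all genes. None of the members passed in the main edgeR fit, where 0.0129% of 15460 genes did. An unadjusted p under 0.05 was reached by 9 members, as by 7.13% of all genes, and DESeq2 and limma-voom also called 0 members. With no low-count filter, edgeR called 5 members (ENO2, HK2, PFKFB3, ALDOC and PDK1), and 377 genes in all. The difference was -2.28 ± 0.61 (adjusted p = 0.451) for ENO2, -1.53 ± 0.52 (adjusted p = 0.598) for HK2, -1.33 ± 0.46 (adjusted p = 0.598) for PFKFB3 and -0.57 ± 0.23 (adjusted p = 0.665) for LDHA. Without smTEADi 3, 2 members passed, ENO2 at -2.73 (adjusted p = 0.00531) and PFKFB3 at -1.69 (adjusted p = 0.0249). For LDHB, at -0.097 ± 0.23 (adjusted p = 0.965), and SLC16A1, at -0.032 ± 0.21 (adjusted p = 0.989), the difference was smaller than its SE.

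Calls near the threshold depended on single libraries and on the fit. With SW-682, 0 members were called without smTEADi 1, smTEADi 3, Vehicle 1 or Vehicle 3, 1 without smTEADi 2 (SLC16A1) and 2 without Vehicle 2 (LDHB and PDK3), while DESeq2 called 6 with all libraries. Over these leave-outs the log2 fold change of LDHB ranged from -0.98 to -0.66 and that of SLC16A1 from -0.91 to -0.54. The SW-682 call of SLC16A1 was also lost with upper-quartile scaling (adjusted p = 0.0512), and both were lost with the replicate block. With pTEADi, ALDOA was lost without any 1 library other than Control 3 (adjusted p = 0.0505 to 0.102). TPI1 was lost without pTEADi 2, pTEADi 3 or Control 1 (adjusted p = 0.0651 to 0.0693), as was PFKFB4 (adjusted p = 0.0792 to 0.129). PDK1 was lost without pTEADi 1, pTEADi 2 or Control 1 (adjusted p = 0.0878 to 0.114), and GAPDH without pTEADi 2 (adjusted p = 0.0531). The other 13 calls with pTEADi, those of ENO2, LDHB, PFKFB3 and PDK2 among them, held without any 1 library. With the 12 libraries in 1 fit, 3 pTEADi calls were lost, those of PFKFB4 (adjusted p = 0.0603), ALDOA (adjusted p = 0.0748) and PDK1 (adjusted p = 0.145). PDK3 passed without pTEADi 1 (adjusted p = 0.0247) or Control 3 (adjusted p = 0.0204). SLC16A3 passed without Control 2 (adjusted p = 0.0195), and PKM (adjusted p = 0.0354) and TIGAR (adjusted p = 0.0156) without Control 3.

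Glucose genes outside the 32 were called in both directions. Of 58 tested, 11 fell and 8 rose with pTEADi, beside 13.6% and 12.7% of all genes. With SW-682, 1 fell and 1 rose, beside 3.48% and 2.02% of all genes. At the mitochondrial entry, PDP1, the phosphatase that reactivates pyruvate dehydrogenase, fell by 0.73 ± 0.11 (adjusted p = 0.000709) with pTEADi. PDHA1, a catalytic subunit gene of that dehydrogenase, fell by 0.37 ± 0.077 (adjusted p = 0.0042), and PC, pyruvate carboxylase, fell by 0.40 ± 0.084 (adjusted p = 0.00428). PYGL, a glycogen phosphorylase, fell by 0.41 ± 0.090 (adjusted p = 0.0059). In the pentose phosphate pathway, the oxidative enzyme PGD rose by 0.55 ± 0.11 (adjusted p = 0.00386), whereas TKT, transketolase, fell by 0.55 ± 0.091 (adjusted p = 0.00118). Among carriers, SLC5A1, the sodium-coupled glucose transporter, rose by 1.61 ± 0.32 (adjusted p = 0.00321) and SLC2A6 fell by 0.95 ± 0.19 (adjusted p = 0.00399). The level of SLC5A1 was low, with 4.14, 6.22 and 5.27 CPM in pTEADi tumours, against 1.54, 2.51 and 1.05 CPM in Control tumours. GPD1L rose by 1.01 ± 0.16 (adjusted p = 0.000976). GPD2, the mitochondrial glycerol phosphate dehydrogenase, fell by 0.72 ± 0.10 (adjusted p = 0.000546) with pTEADi and fell by 0.53 ± 0.13 (adjusted p = 0.0446) with SW-682. SLC16A7, another monocarboxylate transporter, rose by 1.11 ± 0.20 (adjusted p = 0.0365) with SW-682. The SW-682 call of GPD2 was lost without any 1 library other than Vehicle 2 (adjusted p = 0.0604 to 0.206), and that of SLC16A7 without any 1 other than smTEADi 1 or Vehicle 2 (adjusted p = 0.0518 to 0.184).

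Of the genes known to control glycolysis, 3 rose and 3 fell of 13 tested with pTEADi, beside 12.7% and 13.6% of all genes. With SW-682, 2 rose and 0 fell of 15 tested, beside 2.02% and 3.48% of all genes. MYC fell by 0.72 ± 0.13 (adjusted p = 0.00214) with pTEADi and did not pass with SW-682 (-0.22 ± 0.10, adjusted p = 0.211). HIF1A, whose protein is governed mainly by its stability, did not pass with pTEADi (0.090 ± 0.11, adjusted p = 0.592) or with SW-682 (0.17 ± 0.10, adjusted p = 0.323). EPAS1, its relative, rose by 0.29 ± 0.088 (adjusted p = 0.0275) with pTEADi, a call lost without any 1 library other than Control 3 (adjusted p = 0.0615 to 0.122) and with library totals in place of TMM (adjusted p = 0.0712). TXNIP, an arrestin that restrains glucose uptake, had 91.1, 95.3 and 83.9 CPM in pTEADi tumours, against 25.6, 28.6 and 28.3 CPM in Control tumours, and rose by 1.71 ± 0.094 (adjusted p = 2.1e-06). In the other experiment it had 155, 94.6 and 90.1 CPM in smTEADi tumours, against 62.7, 64.6 and 43.1 CPM in Vehicle tumours, and rose by 0.996 ± 0.23 (adjusted p = 0.0423). The SW-682 call was lost without any 1 library other than Vehicle 2 (adjusted p = 0.0518 to 0.197). ARRDC4, a relative of TXNIP, rose by 0.92 ± 0.13 (adjusted p = 0.000471) with pTEADi and rose by 0.79 ± 0.16 (adjusted p = 0.0389) with SW-682, where the SW-682 call was lost without any 1 library other than Vehicle 2 (adjusted p = 0.0518 to 0.184). The forkhead factors FOXK1 and FOXK2 fell with pTEADi, FOXK1 by 0.32 ± 0.084 (adjusted p = 0.0166) and FOXK2 by 0.23 ± 0.079 (adjusted p = 0.0464). Without 1 library, the FOXK1 call was lost when pTEADi 1, 2 or 3 was left out (adjusted p = 0.0537 to 0.0618), and the FOXK2 call with any 1 of the 6 left out (adjusted p = 0.0596 to 0.138) and with DESeq2 (adjusted p = 0.0615). ARRDC4, FOXK1 and FOXK2 were chosen after their values were seen.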

How the data were processed

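RNA from Cal33 xenograft tumours (12 libraries, 3 per group) was sequenced as 150 bp pairs, aligned to GRCh38 with STAR 2.7.9a on Gencode 38 and summarised per gene with RSEM 1.3.1, per the labels and the submitters' processing notes. The authors deposited RSEM expected counts in 1 table per experiment. The strand setting and the treatment of mouse reads are not given in the sources used here.

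Expected counts were rounded. Genes passing filterByExpr (minimum count 10) were tested with edgeR 4.0.16 (TMM scaling, quasi-likelihood F test, two-sided, R 4.3.3) on each whole table, with Benjamini-Hochberg adjustment and a threshold of 0.05. The SE is the log2 fold change divided by the square root of F. The difference between the effects was tested in 1 fit of the 12 libraries. Levels in CPM share a TMM scaling over the 12 libraries, although the tables hold separate experiments. Names and exon lengths came from Gencode 44, promoters from RefSeq. Alternatives were other scalings and filters, DESeq2 1.42.0, limma-voom (limma 3.58.1), unrounded counts, a threshold of 0.01, a replicate block and leaving out each library.

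Members, lists, gene pairs and promoters shown were chosen with earlier results of these data known. All members are described, with values per library where a member was called or its groups did not overlap. Of the other glucose genes, the called ones are named, at most the 10 with the smallest p, and of the regulators HIF1A, EPAS1, MYC and TXNIP, with ARRDC4, FOXK1 and FOXK2 added because they passed.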

Additional observations from a re-analysis of the deposited data

How the results depend on the processing

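The pTEADi count of members (18) stayed within 1.5 times its value under every alternative run, the lowest being 13 without pTEADi 2 and 14 at an adjusted p of 0.01, while the SW-682 count (2) did not. Genes called with SW-682 numbered 816, and 2101 with no low-count filter, 1868 with DESeq2, 2303 with 12 libraries in 1 fit, and 0 at an adjusted p of 0.01. Members called were 6, 6, 9 and 0 under the same settings, and other glucose genes (2) were 12, 11, 15 and 0, and 4 with library totals in place of TMM. With pTEADi, an adjusted p of 0.01 left 2138 of 3864 genes and 11 of 19 other glucose genes. For the difference, 2 genes became 4 with library totals, 377 with no filter, 37 with DESeq2 and 0 at 0.01, and 0 members became 5 with no filter. Leaving out 1 library gave 0 to 1622 genes, 0 to 2 members and 0 to 6 other glucose genes with SW-682, 2325 to 4379, 13 to 21 and 12 to 20 with pTEADi, and 0 to 20 genes and 0 to 2 members for the difference. The causes were not tested.

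Replicate numbers were not taken as pairs: deviations of same-numbered libraries correlated at -0.18, -0.14, 0.17 with SW-682 and 0.0049, -0.053, -0.014 with pTEADi. With the replicate block, 0 genes, 0 members and 0 other glucose genes were called with SW-682, 3707, 19 and 17 with pTEADi, and 0 genes and 0 members for the difference.

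No log2 fold change that turned sign was among the calls. With library totals, SW-682 values were -0.043 for SLC2A1, -0.00094 for PFKL, -0.013 for PFKFB2, -0.038 for ALDOA, -0.066 for ENO2, and pTEADi values -0.038 for HK1, -0.035 for SLC16A3. SW-682 values were -0.082 for PFKFB3, -0.33 for ENO2 with limma-voom and -0.074 for PFKFB3, -0.25 for ENO2 with the replicate block. Without 1 library, SW-682 values that turned sign ranged from -0.12 to 0.19 for SLC2A1, -0.20 to 0.57 for HK2, -0.36 to 0.47 for PFKFB3, -0.16 to 0.23 for ALDOA, -0.53 to 0.47 for ENO2, -0.0021 to 0.75 for SLC16A3, -0.31 to 0.080 for TIGAR, -0.049 to 0.078 for FOXK1, -0.16 to 0.19 for ALDOC, -0.17 to 0.084 for PGK1, -0.28 to 0.015 for LDHA, -0.23 to 0.056 for PFKFB4, -0.13 to 0.091 for GYS1, -0.0033 to 0.40 for PDK1. With pTEADi the range was -0.21 to 0.47 for SLC16A3, and for the difference -0.72 to 0.031 for SLC16A3, -0.29 to 0.049 for LDHB, -0.17 to 0.21 for SLC16A1, -0.11 to 0.098 for GBE1, -0.10 to 0.028 for PGM1, -0.17 to 0.049 for GYS1, -0.028 to 0.12 for PFKL, -0.20 to 0.014 for PDK3.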

Other observations

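Some tissue-restricted members of the wider glucose pathway had 0 counts in all 12 libraries: SLC2A2, the transporter of liver and pancreatic islets, PDK4, PCK1, GYS2, the liver glycogen synthase, and GYG2. Within Vehicle, replicate 2 was the highest library for 21 of 31 members, beside 36.1% of all genes. Within Control, replicate 2 was the highest for 19 of 31, beside 37.4% of all genes.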
